A study of Mus musculus with 6 samples.

Results

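Neutrophil-attracting CXC chemokines and granulocyte colony-stimulating factor (G-CSF) were described in single cells of the C3(1)-Tag mouse mammary gland, together with their receptors. The members are 8 genes taken by name: the CXCR2 ligand genes Cxcl1, Cxcl2, Cxcl3, Cxcl5 and Cxcl15, the receptor gene Cxcr2, Csf3, which encodes G-CSF, and its receptor gene Csf3r. They are 8 of the 31055 counted features, of which 22863 had a UMI in a kept cell, and each of the 8 had UMIs. These genes were chosen by their measured levels in the stromal, epithelial and myeloid classes and the disease states of these same libraries, so their levels and fold changes are a description. Where members are counted as called in a fit over all genes, the count is part of that description and no evidence on the members.

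All samples came from female mice in which the C3(1) promoter drives the SV40 large T antigen, on the FVB/NJ background per the study's methods, and no group without the transgene was analysed here. The 6 libraries fall into 3 states of 2 libraries each: Prepuberty (mammary gland at 5 weeks), DCIS (whole mammary gland at 14 weeks that held ductal carcinoma in situ) and Tumor (palpable mammary tumour at more than 18 weeks). Whether the pair of libraries of a state came from different animals is not said in the labels, and the study calls them technical replicates in its regression but speaks of specimens elsewhere, so an SE or p-value here measures the spread between libraries only. Per the labels, an overnight enzymatic digestion served for glands and tumours alike. In the methods of the study, tumours were instead dissociated with a kit of their own, and Tumor 2 had a later version of the library kit. Dissociation and the Tumor state therefore cannot be told apart.

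CXCR2 ligands are small secreted chemokines that bind the G protein-coupled receptor CXCR2 on neutrophils and draw these cells out of the blood. Cells such as fibroblasts, endothelium and macrophages release them when interleukin-1, tumour necrosis factor or interleukin-17 activates NF-kB, and their mRNAs are short-lived. G-CSF acts through CSF3R on neutrophil precursors and neutrophils, raising their output from the bone marrow and their survival. Ligands and G-CSF can thus come from tissue cells, and cells that bear the receptors can answer them.

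The 5 ligand genes lie within 147 kb of chromosome 5, all on the forward strand (GRCm38): Cxcl5 (ENSMUSG00000029371) at chr5:90759360-90761624, Cxcl3 (ENSMUSG00000029379) at chr5:90786103-90789600, Cxcl15 (ENSMUSG00000029375) at chr5:90794534-90803067, Cxcl1 (ENSMUSG00000029380) at chr5:90891241-90893115 and Cxcl2 (ENSMUSG00000058427) at chr5:90903871-90905938. The other members lie elsewhere: Cxcr2 (ENSMUSG00000026180) at chr1:74153989-74161246, Csf3r (ENSMUSG00000028859) at chr4:126024550-126044440 and Csf3 (ENSMUSG00000038067) at chr11:98701263-98703629, all on the forward strand too. The genome build of the counting reference is not given for these libraries in the sources used here, and the identifiers match the GRCm38 annotation. Cxcl1, Cxcl2 and Cxcl3 are near relatives, so reads of conserved stretches may not be assigned fully to the right gene.

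Because Cxcl1, Cxcl2 and Cxcl3 are near relatives with the same order of states in fibroblast-like cells, the 250 bases before the RefSeq start of each are shown, on the forward strand of GRCm38.p6, with matches to the NF-kB-type motif GGNNTTTCC on either strand in capitals.
Cxcl1, chr5:90890995-90891244: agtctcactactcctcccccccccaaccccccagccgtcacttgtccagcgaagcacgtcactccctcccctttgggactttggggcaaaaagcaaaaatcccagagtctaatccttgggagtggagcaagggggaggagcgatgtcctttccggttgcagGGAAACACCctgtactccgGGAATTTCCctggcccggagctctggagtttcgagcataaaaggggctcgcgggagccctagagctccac
Cxcl2, chr5:90903649-90903898: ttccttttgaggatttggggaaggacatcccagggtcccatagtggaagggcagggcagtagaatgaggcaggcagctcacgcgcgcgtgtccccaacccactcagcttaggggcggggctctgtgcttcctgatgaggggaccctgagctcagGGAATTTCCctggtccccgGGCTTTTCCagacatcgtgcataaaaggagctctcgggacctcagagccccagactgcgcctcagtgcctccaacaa
Cxcl3, chr5:90785851-90786100: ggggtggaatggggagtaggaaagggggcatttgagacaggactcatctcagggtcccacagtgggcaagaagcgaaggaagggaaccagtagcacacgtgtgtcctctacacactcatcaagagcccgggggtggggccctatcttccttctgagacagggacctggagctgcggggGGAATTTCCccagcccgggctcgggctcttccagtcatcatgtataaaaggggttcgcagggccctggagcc

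The letters GGAATTTCC stood at 70 to 62 bases before the start of Cxcl1, 96 to 88 before that of Cxcl2 and 72 to 64 before that of Cxcl3. Cxcl1 had a further match on the reverse strand at 89 to 81 bases, and Cxcl2 one on the forward strand at 77 to 69 bases. GGNNTTTCC occurred in 4.93% of 32851 RefSeq promoter windows of this length. Of the 6 members with a window, Cxcl15, Cxcr2 and Csf3r had no match to it. Cxcl15 had a match to the C/EBP-type motif TTGNNNAAT, which 10.4% of windows hold, and Cxcl15 and Cxcl3 had TATAAA, which 12.4% hold. TGANTCA, the AP-1 motif, was in 6.75% of windows and in none of the members. All motifs were sought on both strands and no matches overlapped. Csf3 and Cxcl5 have no entry in the promoter table used. These letters come from the reference genome, not from FVB/NJ mice, and a match is a description of sequence alone.

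After filtering, 21537 cells with 237076023 UMIs remained, 2549 to 4305 per library, with median depths of 6568 to 13620 UMIs per cell. Cells were clustered and named from marker genes, hence the suffix "-like" (6503 fibroblast-like, 2275 endothelial-like, 430 pericyte or smooth muscle-like, 6720 epithelial-like, 1035 macrophage-like and 113 neutrophil-like cells). At most 32 cell barcodes were shared by a pair of libraries. Levels are CPM, the UMIs of a gene in every 1000000 UMIs of the class in that library, always in the order Prepuberty 1, Prepuberty 2, DCIS 1, DCIS 2, Tumor 1, Tumor 2. Some measures moved with the Tumor state. T-antigen UMIs were seen in 0.0585% to 0.616% of fibroblast-like cells of Prepuberty and DCIS but in 43.3% and 51.4% of those of Tumor 1 and 2, and the 9 epithelial markers, all detected, summed to 25.2 to 141 CPM in that class before the Tumor state and to 2075 and 377 CPM in it. Myoepithelial markers went from 14.4 to 29.2 CPM to 1037 and 838 CPM there. The part of these measures in the levels below was not tested, beyond the cells without T-antigen UMIs given further on. The 7 fibroblast markers were all detected in every library of the class, at 6445 to 14126 CPM. T-like cells, which should hold little of the stromal ligands, give a level of free RNA: Cxcl1 stood there at 0 to 155 CPM, Cxcl2 at 0 to 21.2 CPM, Cxcl5 at 0 to 91.5 CPM (the highest from 1 UMI), and Csf3 had no UMI in any library, where 3 counts would be 7.95 CPM in Tumor 1 and 274.6 CPM in Prepuberty 1, which had 6 such cells. The T-like values of Prepuberty 1 rest on too few cells to set a limit, and those of the other libraries are to be set beside low levels in the same library.

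Fibroblast-like cells held most of the ligand and Csf3 UMIs of the gland. Over all libraries they held 76.7% of the 274788 Cxcl1 UMIs, 55.3% of the 108372 Cxcl2 UMIs, 72.3% of the 16620 Cxcl3 UMIs, 92.8% of the 127609 Cxcl5 UMIs and 56.6% of the 11989 Csf3 UMIs. Endothelial-like cells held another 34.5% of Csf3, macrophage-like cells 21.9% of Cxcl2, and epithelial-like cells 98.7% of the 7875 Cxcl15 UMIs. A share counts cells as well as RNA per cell, and fewer cells and less RNA per cell are told apart only by the class levels given below.

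Cxcl1, Cxcl2, Cxcl3 and Cxcl5 together came to 2570, 5387, 3216, 3638, 505 and 81.2 CPM of whole libraries. Both Tumor libraries were below the other 4, and Tumor 2 was the lowest. Fibroblast-like cells gave 76.2%, 84.6%, 75.7% and 79.7% of these UMIs in Prepuberty and DCIS and 16.3% and 42.3% in Tumor 1 and 2. Neutrophil-like cells, which were 1.44% and 1.80% of the Tumor cells, gave 15.3% and 11.5% there, macrophage-like cells 34.5% and 6.46%, and epithelial-like cells 25.6% and 30.7%. Of Cxcl2 alone, macrophage-like and neutrophil-like cells held 45.3% and 23.8% in Tumor 1 and 29.5% and 48.6% in Tumor 2, against 5.81% and 6.90% in fibroblast-like cells.

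**Figure D1:**
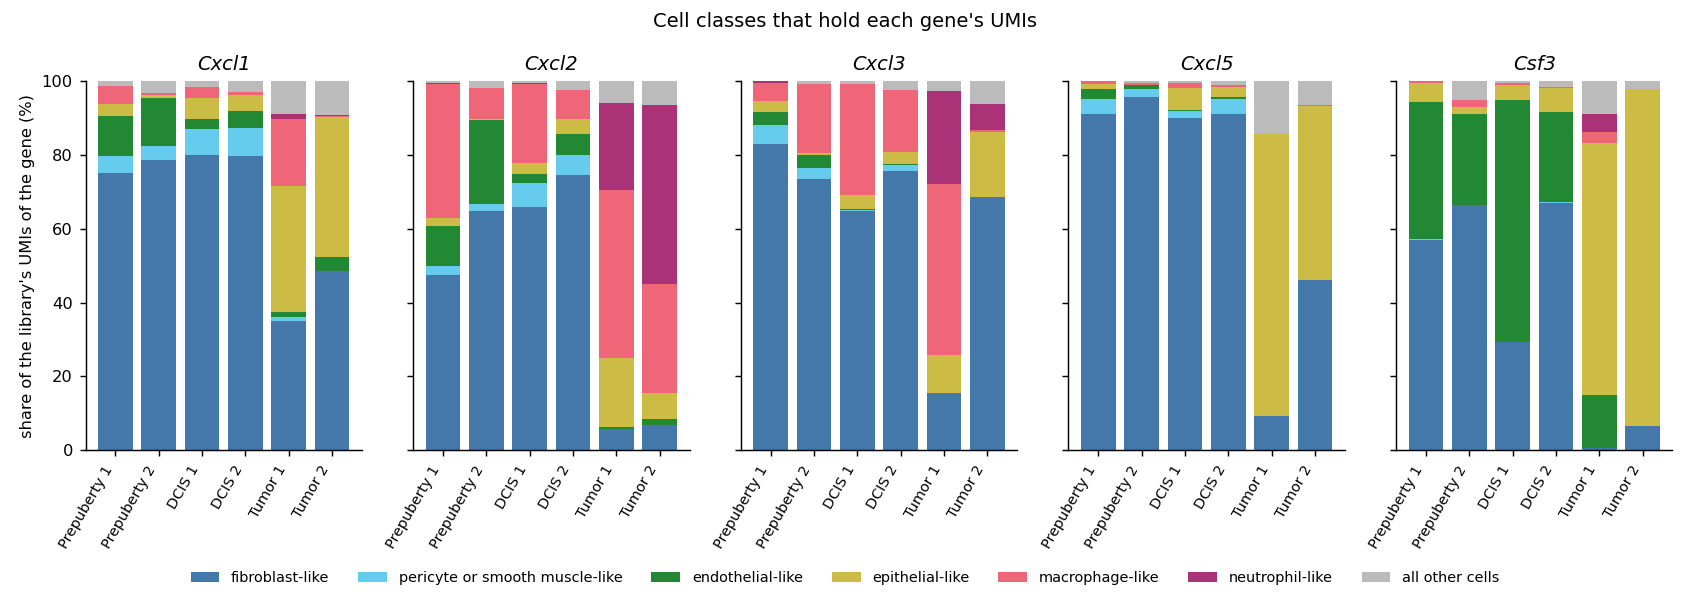
Share of the UMIs of Cxcl1, Cxcl2, Cxcl3, Cxcl5 and Csf3 held by each cell class in each of the 6 libraries, in percent of the gene's UMIs in that library. Fibroblast-like cells hold the largest block of Cxcl1 and Cxcl5 in the 4 Prepuberty and DCIS libraries, and for Cxcl2 macrophage-like and neutrophil-like cells hold most in both Tumor libraries.

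Of the ligands in fibroblast-like cells, Cxcl1, a main neutrophil attractant of mouse tissue, stood at 1933, 3307, 8173, 6825, 734 and 74.2 CPM. DCIS libraries were the highest, Tumor libraries the lowest, and no 2 states overlapped. Cxcl2, its near relative, followed the same order of states, at 346, 696, 3431, 2220, 209 and 7.06 CPM. Cxcl3 was at 168, 183, 359, 292, 23.5 and 56.5 CPM, again highest in DCIS and lowest in Tumor. The log2 fold changes of DCIS against Prepuberty were 1.75 ± 0.94 (SE, n = 2 libraries per state) for Cxcl1, 2.68 ± 1.25 for Cxcl2 and 1.11 ± 0.38 for Cxcl3. For Tumor against DCIS they were -4.79 ± 1.07, -5.27 ± 1.41 and -3.80 ± 0.42.

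Cxcl5, a ligand typical of epithelia and activated stroma, had another pattern in fibroblast-like cells: 1382, 4224, 795, 1366, 16.0 and 66.6 CPM. The highest library was Prepuberty 2, Prepuberty 1 lay just above DCIS 2, and both Tumor libraries were far below. The log2 fold changes of Cxcl5 were -1.14 ± 0.67 for DCIS against Prepuberty and -5.51 ± 0.81 for Tumor against DCIS. The former was -0.16 without Prepuberty 2 and -1.72 without Prepuberty 1. Csf3 was at 79.6, 138, 110 and 225 CPM in Prepuberty and DCIS, which overlapped, and at 0.208 and 0.423 CPM in Tumor 1 and 2. Those Tumor levels rest on 1 and 3 UMIs, against 598 and 2119 UMIs in DCIS 1 and 2. On plain UMI totals Csf3 was thus 543-fold lower in Tumor than in DCIS, with a counting interval of 212 to 1995, and its fitted log2 fold change was -9.67 ± 0.69 (0.85 ± 0.43 for DCIS against Prepuberty, 0.25 without DCIS 2 and 1.26 without Prepuberty 2).

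All 5 members tested in fibroblast-like cells were past the threshold and lower for Tumor against DCIS, where 18.9% of the 12417 genes tested were past it (edgeR quasi-likelihood test, adjusted p under 0.05). In DCIS against Prepuberty 0 of 5 passed, as did 0% of all genes. In that comparison 1 member and 1308 genes had an unadjusted p under 0.05, and DESeq2 called 0 members and 102 genes. Since the genes were chosen on these values, nothing is read from the counts of members. Single libraries carried part of the Tumor values: without DCIS 1 the calls of Cxcl1 and Cxcl2 were lost, without DCIS 2 those of Cxcl1, Cxcl2 and Cxcl5, and without either Prepuberty library that of Cxcl2. The fold change was -7.58 without Tumor 1 and -3.98 without Tumor 2 for Cxcl1, -9.57 and -4.39 for Cxcl2, -3.45 and -4.42 for Cxcl3, -4.94 and -6.69 for Cxcl5, and -9.49 and -10.17 for Csf3.

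T-antigen UMIs moved with this result, as given above. The study states that single-cell data miss transcripts, so a cell without such a UMI may still express the T antigen. Of epithelial-like cells, 72.6% and 58.0% had one in Tumor 1 and 2. How many of the cells given next express it unseen was not tested. Among fibroblast-like cells with no T-antigen UMI (185 in Tumor 1 and 174 in Tumor 2), Cxcl1 was at 1932, 3310, 8208, 6845, 1464 and 115 CPM. Csf3 was at 79.7, 138, 110, 226, 0.482 and 0.730 CPM in those cells, and Cxcl5 at 1383, 4228, 782, 1370, 23.6 and 113 CPM. Both Tumor libraries therefore stayed under both DCIS libraries for all 3 genes. In these cells the fold change for Tumor against DCIS was -8.75 for Csf3, -3.19 for Cxcl3 and -4.77 for Cxcl5, all still called, and -3.75 for Cxcl1 and -4.39 for Cxcl2, no longer called. The call of Cxcl2 was also lost with members among the clustering genes (-4.59). Over all cells of the class, clustering without integration left 3 of 5 members called, beside 451 of 11731 genes.

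**Figure D2:**
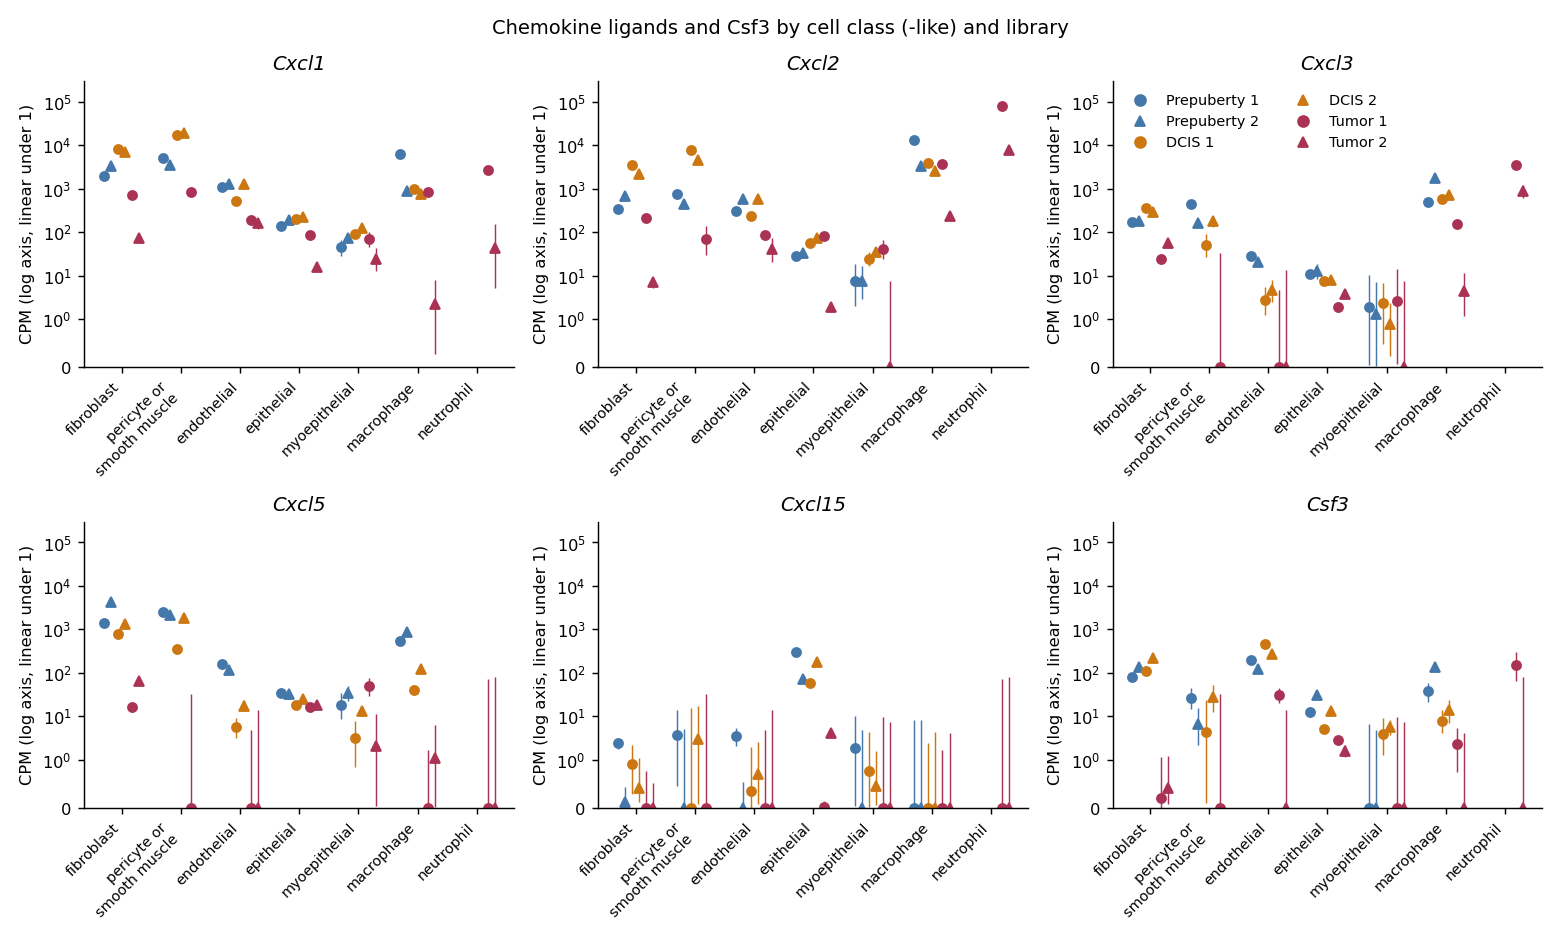
Levels of Cxcl1, Cxcl2, Cxcl3, Cxcl5, Cxcl15 and Csf3 by cell class, in CPM of the class (logarithmic axis, linear below 1). Each point is a library with at least 20 cells of the class, coloured by state, and bars are exact 95% counting intervals. In fibroblast-like cells the Tumor points lie below all others for Cxcl1, Cxcl2, Cxcl3, Cxcl5 and Csf3, and Cxcl15 is seen in epithelial-like cells.

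Among fibroblast-like clusters, cluster 2, whose leading genes include Il1rl1, Ccl2 and Cxcl5, had high Cxcl1 in DCIS: 3077, 4199, 18746, 9320, 185 and 213 CPM. Cluster 3, led by Gsta1 and Pi16, was below it in DCIS 1 and just above it in DCIS 2, at 3658, 4147, 12162, 9488 and 3107 CPM in the libraries up to Tumor 1, with no UMI in the 18 cells of Tumor 2. Cxcl1 of cluster 9, led by Crabp1 and Col1a1, was lower than in clusters 0, 2 and 3 in all 4 Prepuberty and DCIS libraries, but not in Tumor, at 565, 1520, 1653, 1050, 935 and 20.5 CPM. Cxcl5 did not mark cluster 2 alone, since cluster 3 had 3286, 5123, 1258, 1836, 4.24 and 9.58 CPM against 1364, 4650, 936, 1576, 20.6 and 127 CPM in cluster 2. Cluster 0, led by Rarres2 and Cyp7b1, had the highest Csf3 of DCIS, at 69.3, 146, 207, 331, 1.43 and 0.697 CPM. Clusters 3 and 9 had no Csf3 UMI in either Tumor library.

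The makeup of the class also changed with state. Clusters 0, 2 and 3 held 211, 100 and 155 of the 649 fibroblast-like cells of DCIS 1 and 64, 51 and 23 of the 326 of Tumor 1, while cluster 9 held 153 and 104. In DCIS 2 they held 339, 422 and 309 of 1301 cells, with 172 in cluster 9, and in Tumor 2 they held 100, 47 and 18 of 358, with 114 in cluster 9. The share of cluster 3 was thus lower and that of cluster 9 higher in both Tumor libraries, whereas the shares of clusters 0 and 2 overlapped between the states. A cycling cluster, number 22, held 4 of these cells in DCIS 1 and 84 in Tumor 1. Within each of clusters 0, 2 and 3, and in cluster 9, Cxcl5 and Csf3 were lower in both Tumor libraries than in both DCIS libraries. Cxcl1 was as well, although cluster 9 of Tumor 1 (935 CPM) lay close to that of DCIS 2 (1050 CPM).

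**Figure D3:**
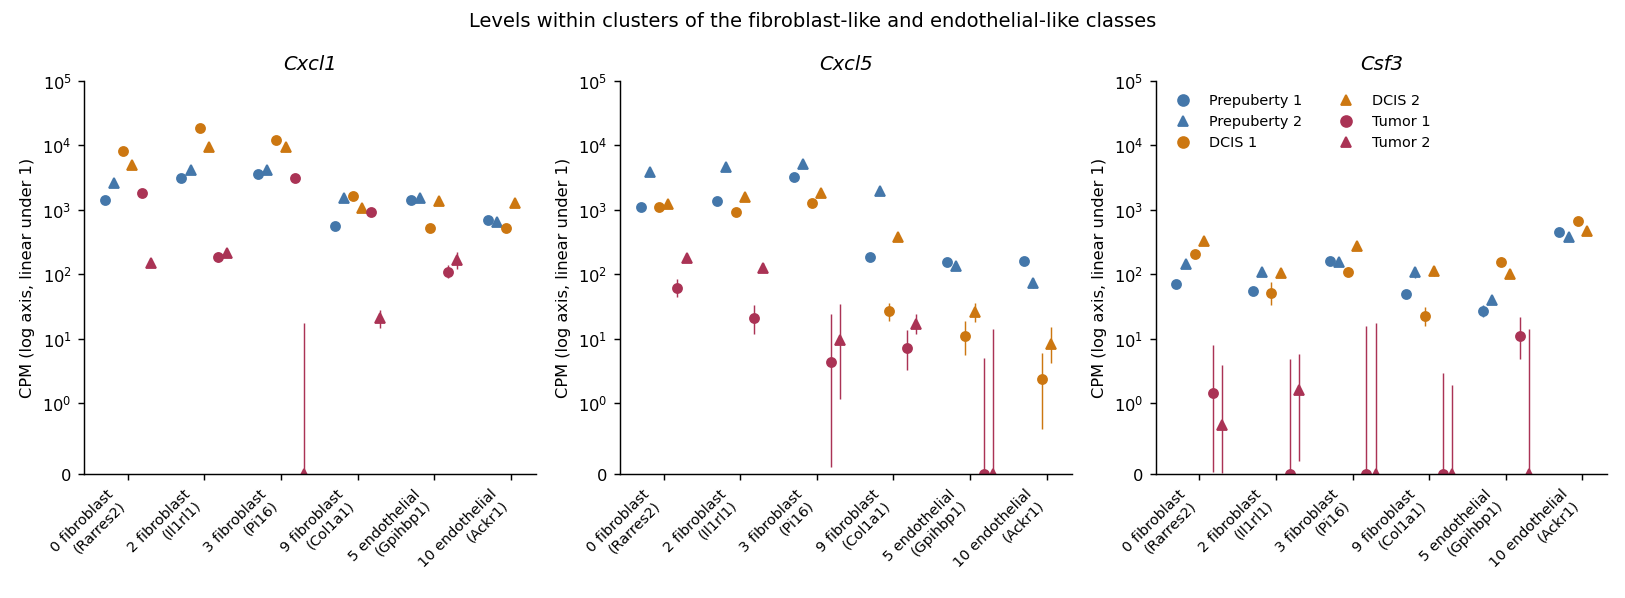
Levels of Cxcl1, Cxcl5 and Csf3, in CPM of the cluster, in fibroblast-like clusters 0, 2, 3 and 9 and endothelial-like clusters 5 and 10. Each point is a library with at least 10 cells of the cluster and bars are exact 95% counting intervals. Csf3 in cluster 10 stays above that of cluster 5 in all 4 Prepuberty and DCIS libraries, and the fibroblast-like Tumor points lie low for Cxcl5 and Csf3.

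Pericyte or smooth muscle-like cells, the mural cells of small vessels, had the highest median level of Cxcl1 of all classes, at 5138, 3544, 16774, 19151 and 826 CPM up to Tumor 1. Tumor 2 had 5 such cells and no Cxcl1 UMI. Cxcl2 reached 7828 and 4580 CPM in DCIS 1 and 2, from 768 and 435 CPM in Prepuberty 1 and 2, and was 70.3 CPM in Tumor 1. Cxcl5 was at 2575, 2140, 346 and 1795 CPM and had no UMI in Tumor, at least 67.2-fold lower than in DCIS on a floor of 3 counts over the state. In the Tumor libraries this class also held fibroblast markers at 9108 and 8815 CPM, against 286 to 1109 CPM before. The class was not among those fitted, so these values have no test.

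Csf3 had its highest median level in endothelial-like cells, overlapping that of fibroblast-like cells, at 202, 122, 471, 274, 30.8 and 0 CPM. DCIS libraries were highest, and the Tumor values rest on 24 UMIs of 78 cells and 0 UMIs of 33 cells, where 3 counts would be 11.1 CPM. Cluster 10, led by the venule genes Ackr1 and Selp, carried most of it, at 449, 373, 672 and 468 CPM in Prepuberty and DCIS, against 26.8, 40.3, 157 and 102 CPM in cluster 5, led by the capillary gene Gpihbp1. In Tumor 1 cluster 10 had 313 CPM (16 UMIs in 7 cells) and cluster 5 had 10.97 CPM. The Tumor libraries held 7 and 3 cells of cluster 10 and 71 and 30 of cluster 5, against 268 and 177, and 158 and 179, in DCIS 1 and 2. The class fold change, -4.54 ± 0.78 for Tumor against DCIS, therefore spans a change in makeup. With a 5% mitochondrial limit it was -6.51. Without Tumor 2 it was -3.88, and without Tumor 1 the state had no Csf3 UMI. Without integration of the libraries before clustering it was -1.48 and not called. A cluster of 65 and 16 cells of Tumor 1 and 2 that passed 7 endothelial markers was then left unnamed.

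Cxcl1 in endothelial-like cells was at 1105, 1316, 518, 1314, 191 and 159 CPM and Cxcl2 at 305, 585, 230, 565, 84.6 and 40.8 CPM. Prepuberty and DCIS overlapped for both and Tumor lay below. The fold changes were -0.13 ± 0.40 and 0.14 ± 0.47 for DCIS against Prepuberty, and -2.70 ± 0.44 and -2.88 ± 0.53 for Tumor against DCIS. Cxcl5 was at 159 and 117 CPM in Prepuberty, at 5.64 and 17.5 CPM in DCIS and had no UMI in Tumor, at least 4.03-fold lower than in DCIS. Cxcl3 ran from 27.8 and 20.8 CPM to 2.82 and 4.64 CPM and likewise to no UMI, at least 1.30-fold lower. Both DCIS libraries were under both Prepuberty libraries for Cxcl3 (-2.41 ± 0.43) and Cxcl5 (-3.31 ± 0.45). In all, 4 of 5 members (Cxcl1, Cxcl2, Cxcl5 and Csf3) were called lower for Tumor against DCIS, where 13.9% of 10625 genes were called. Without integration 1 of 5 was called, beside 64 of 10040 genes. With the replicate number as a block 3 of 5 were, beside 1840 of 10625 genes. Of the members, 0 of 5 were called by edgeR for DCIS against Prepuberty, as were 0% of all genes, with 3 members and 1191 genes at an unadjusted p under 0.05, and DESeq2 called 1 member and 59 genes. The Cxcl5 call was lost without DCIS 2, Tumor 1 or Tumor 2, and that of Cxcl2 without Tumor 2.

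Macrophage-like cells were a strong source of Cxcl2, at 13064, 3333, 3928, 2584, 3628 and 236 CPM. Prepuberty 1 was the highest, Tumor 2 the lowest, and all 3 states overlapped. Cxcl1 in these cells was at 6188, 882, 1008, 767, 839 and 2.21 CPM, with the same highest and lowest library. Cluster i4, led by Ccl4, Pf4 and Ccl3, had Cxcl2 at 23132, 4580, 16979.5 and 7566 CPM in Prepuberty and DCIS and no cell in Tumor. Tumor macrophage-like cells lay mostly in cluster i1 for Tumor 1 (257 of 357 cells, Cxcl2 at 4434 CPM) and in cluster i6 for Tumor 2 (68 of 94 cells, 228 CPM). These are different clusters, so the class spans a change in makeup too.

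The fold changes of Cxcl1 and Cxcl2 in macrophage-like cells were -1.47 ± 1.49 and -1.17 ± 1.06 for Tumor against DCIS, and -1.96 ± 1.51 and -1.28 ± 1.06 for DCIS against Prepuberty. Single libraries set these values: without Tumor 1 the former were -9.34 and -4.62, without Tumor 2 they were -0.49 and -0.25, and without Prepuberty 1 the latter were 0.30 and 0.26. Cxcl3 was at 489, 1731, 587, 702, 154 and 4.42 CPM, a fold change of -3.38 ± 1.10 for Tumor against DCIS (-7.94 without Tumor 1 and -2.46 without Tumor 2). Cxcl5 was at 540, 858, 39.7, 120, 0 and 1.10 CPM, so Tumor had 1 UMI, 210-fold lower than DCIS with a counting interval of 37.3 to 8363. Csf3 rested on 5 UMIs in Tumor 1 and 0 in Tumor 2, against 24 in DCIS. For Tumor against DCIS 2 of 6 members (Cxcl5 and Csf3r) were called lower, where 9.6% of 6810 genes were called. For DCIS against Prepuberty edgeR called 0 of 6 members and 0.147% of genes (10), with 2 members and 778 genes at an unadjusted p under 0.05, and DESeq2 called 2 members and 64 genes. The call of Csf3r was lost without either DCIS library, without Tumor 2 and with scaling by plain library totals.

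Levels of the CXCR2 ligands shared with stroma were low in epithelial-like cells, although these cells are many and held 34.1% and 37.9% of the Cxcl1 UMIs of Tumor 1 and 2. Cxcl1 was at 136, 192, 206, 227, 85.4 and 15.5 CPM and Cxcl2 at 27.8, 33.1, 55.3, 71.9, 81.3 and 1.92 CPM, and Cxcl3 was at 1.85 to 12.6 CPM. The highest T-like levels of Cxcl1 and Cxcl2, 155 and 21.2 CPM, were those of DCIS libraries. In Tumor 1 T-like cells had 3 UMIs of each, or 7.95 CPM. In Tumor 2 they had none, where 3 counts would be 20.7 CPM. Cxcl5 was at 34.8, 32.6, 18.5, 24.98, 16.0 and 18.3 CPM, while T-like cells of Tumor 1 and 2 had no Cxcl5 UMI, where 3 counts would be 7.95 and 20.7 CPM. With the fibroblast-like level low in Tumor, epithelial-like cells held 76.5% and 47.4% of the Cxcl5 UMIs of Tumor 1 and 2. Csf3 likewise stood at 12.48, 31.2, 5.11, 13.5, 2.87 and 1.58 CPM, which made up 68.5% and 91.3% of its UMIs in Tumor 1 and 2. T-like cells had no Csf3 UMI there, but 3 counts would be 7.95 and 20.7 CPM, above both Tumor levels. Free RNA therefore cannot be told apart from expression at these levels.

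Cxcl15, a ligand best known from lung epithelium, was an epithelial gene here, at 295, 72.2, 58.1, 177, 0.0250 and 4.11 CPM, and at no more than 4.61 CPM in any other class. Both Tumor libraries were below the rest, with 1 and 109 UMIs. On plain totals Cxcl15 was 70.6-fold lower in Tumor than in DCIS, with a counting interval of 58.4 to 86.1, and the fitted log2 fold change was -6.42 ± 1.61. It was -5.41 without Tumor 1 and -12.08 without Tumor 2, which holds 109 of the Tumor UMIs, and -7.09 and -5.39 without DCIS 1 and DCIS 2. Cluster 13, with Tph1, Cited1 and the prolactin receptor gene Prlr among its leading genes, carried most of it, at 615, 208, 442, 546, 6.25 and 219 CPM. The Tumor values of that cluster come from 1 UMI in 18 cells and 108 UMIs in 39 cells. The cluster held 303, 38, 140 and 306 cells in Prepuberty and DCIS, so in Tumor 2 the low class level went with few cells of this kind. None of the 7 members tested in epithelial-like cells was called by edgeR for Tumor against DCIS, where 3.07% of 13275 genes were. In that comparison 5 members and 3381 genes had an unadjusted p under 0.05, and DESeq2 called 4 members and 1679 of 21042 genes. Between DCIS and Prepuberty 0 of 7 members and 0% of all genes were called, with 0 members and 1707 genes at an unadjusted p under 0.05, and DESeq2 called 0 members and 315 genes.

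Neutrophil-like cells, the class with the highest levels of both receptors, held 39.4% of the Cxcr2 UMIs and 26.0% of the Csf3r UMIs. These cells numbered 1, 0, 4, 0, 62 and 46, that is 0.0236%, 0%, 0.130%, 0%, 1.44% and 1.80% of the cells of a library. The exact 95% binomial intervals were 1.11% to 1.84% and 1.32% to 2.40% in Tumor 1 and 2 and 0.0354% to 0.332% in DCIS 1, and the counts of 0 in Prepuberty 2 and DCIS 2 have exact upper bounds of 0.105% and 0.0952% (on the limit of 3 counts, a count of 0 allows up to 0.0858% and 0.0775%). Of immune-like cells they were 9.89% in Tumor 1 and 18.7% in Tumor 2. Their median depth was low, 757 and 949 UMIs in Tumor 1 and 2, and 7 and 9 of the 9 neutrophil markers were detected. A floor of 200 genes per cell can remove neutrophils. Of the deposited barcodes it left out, 1, in Tumor 1, had 3 or more UMIs of S100a8 and S100a9. Cells lost before deposition could not be searched. With 200 genes or more, 48, 9, 34, 39, 98 and 161 barcodes had as many such UMIs, more than were named neutrophil-like in each library. The difference in share between states was not tested.

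In Tumor 1 and 2, Cxcr2 in neutrophil-like cells was at 309 and 1022 CPM (16 and 47 UMIs), and Csf3r at 289 and 1175 CPM (15 and 54 UMIs). The 4 such cells of DCIS 1 held 4 UMIs of each, or 967 CPM, between the levels of Tumor 1 and Tumor 2. Elsewhere Cxcr2 was at or under 1.01 CPM in epithelial-like cells, whose great number still gave them 38.8% of its 170 UMIs, at or under 0.417 CPM in fibroblast-like cells, and at most 6.89 CPM in T-like cells (1 UMI) and 5.52 CPM in macrophage-like cells (5 UMIs). Csf3r was also seen in macrophage-like cells, which held 66.9% of its 281 UMIs, at 57.1, 74.9, 34.5, 35.9, 16.7 and 9.94 CPM. The states did not overlap and fell in the order Prepuberty, DCIS, Tumor. The fold changes of Csf3r there were -0.76 ± 0.41 and -1.85 ± 0.42. Neutrophil markers summed to 773 to 1327 CPM in macrophage-like cells of Prepuberty and DCIS and to 263 and 365 CPM in Tumor 1 and 2, and their part in the Csf3r levels was not tested.

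Neutrophil-like cells expressed ligands as well as receptors. Cxcl2 was at 79242 and 7657 CPM in Tumor 1 and 2 (4106 and 352 UMIs), Cxcl3 at 3512 and 870 CPM and Cxcl1 at 2663 and 43.5 CPM. Tumor 1 was higher for all 3. Cxcl5 had no UMI in these cells, where 3 counts would be 57.9 and 65.3 CPM, and Csf3 had 8 UMIs in Tumor 1 and 0 in Tumor 2.

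**Figure D4:**
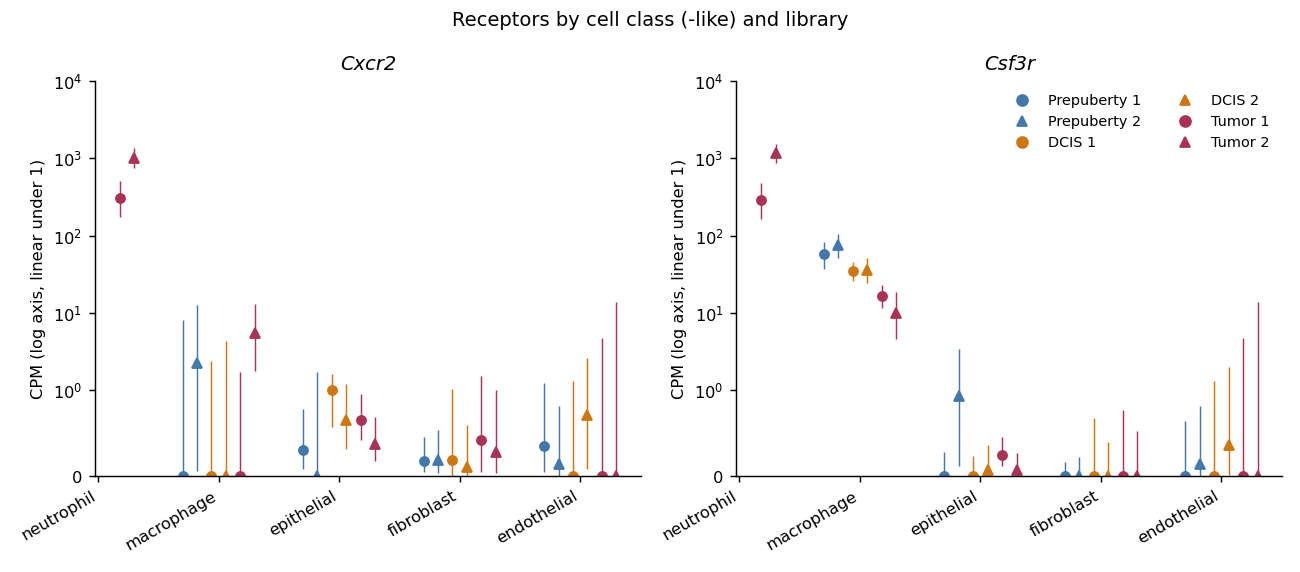
Levels of Cxcr2 and Csf3r, in CPM of the class, in neutrophil-like, macrophage-like, epithelial-like, fibroblast-like and endothelial-like cells. Each point is a library with at least 20 cells of the class and bars are exact 95% counting intervals. Of the points shown, both receptors are highest in the neutrophil-like cells of Tumor 1 and 2, and macrophage-like cells show Csf3r at 9.94 to 74.9 CPM.

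Ordered by the median over libraries with at least 20 cells, Cxcl1 ran from pericyte or smooth muscle-like (5138 CPM) and fibroblast-like (2620) through neutrophil-like (1353) and macrophage-like (861) to endothelial-like cells (812). Cxcl2 ran from neutrophil-like (43449 CPM) and macrophage-like (3480) to pericyte or smooth muscle-like (768), fibroblast-like (521) and endothelial-like cells (268). Cxcl3 followed in the order neutrophil-like (2191 CPM), macrophage-like (538), fibroblast-like (176) and pericyte or smooth muscle-like (164). Cxcl5 was highest in pericyte or smooth muscle-like (1795 CPM) and fibroblast-like cells (1080), with macrophage-like cells next (80.1). Csf3 was highest in endothelial-like (162 CPM) and fibroblast-like cells (94.6), with neutrophil-like cells next (77.2). Neutrophil-like medians rest on the Tumor libraries alone and pericyte or smooth muscle-like ones leave out Tumor 2, so these orders mix class with state. Neighbouring classes overlapped in each of these orders. They did not overlap for Cxcr2 between neutrophil-like and epithelial-like cells (666 and 0.513 CPM), nor for Csf3r between neutrophil-like and macrophage-like cells (732 and 35.2 CPM) or between the latter and epithelial-like cells (0.0704 CPM).

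Genes with the most similar patterns were sought over 52 sums of a class in a library (Pearson's r of log2(CPM + 10), across sums that share libraries, given as a description). For Cxcl1 they were Ccl2 (0.83), Sod2 (0.83), Ccl11, Procr and Ubap1 (each 0.79). Cxcl2 and Cxcl3 were each other's nearest gene (0.87). Cxcl2 was next nearest to Ehd1 (0.85), Tnfaip2 (0.83), Slc15a3 (0.80) and Creg1 (0.77), and Cxcl3 to Ehd1 (0.80), Prdx5 (0.80), Creg1 (0.79) and Acod1 (0.78). Cxcl5 was nearest to Tmod1 (0.86), Cyb5a (0.83), Ndn (0.80), Esd (0.80) and Sod2 (0.79), and Csf3 to Ampd3 (0.82), Rnd1 (0.78), Gdf15 (0.76), Slc10a6 (0.75) and Cxcl9 (0.73). Cxcl15 was nearest to Tmprss13 (0.98), Tspan1 (0.97), Fgb, Slc13a2 and Rasef (each 0.96). Cxcr2 was nearest to Retnlg and Gm5483 (each 0.99), S100a9 (0.98), Entpd3 (0.97) and Wfdc21 (0.95), all over few cells. Csf3r was nearest to the formyl peptide receptor genes Fpr1 (0.98) and Fpr2 (0.95) and to Cd300ld, Cd300lb and Ifitm6 (each 0.94).

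The remaining genes of neutrophil recruitment were taken from a list of 82, none of them members: inducers, their receptors, NF-kB regulators and mRNA decay factors, other CXC chemokines and their receptors, adhesion molecules and genes of neutrophil content. The list was drawn up with earlier results of these data known. Its counts, medians and p-values are therefore a description too. In fibroblast-like cells 28 of the 59 list genes tested were lower for Tumor against DCIS and 2 were higher (50.8% called, against 18.9% of all genes, 1351 higher and 990 lower). The list's median log2 fold change was -1.81 and that of all genes 0.14. Scaling by plain library totals in place of TMM, chosen after seeing the data, moved the median of all genes by 0.73 and gave 3585 genes higher and 565 lower. On that scale the list's median lay 1.94 below that of all genes in place of 1.95, and 2 list genes were called higher and 20 lower.

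The inducers counted 5 of 7 lower. Csf2, the gene of GM-CSF, went from 284 UMIs over the DCIS libraries to 0 over the Tumor libraries and was at least 75.7-fold lower (adjusted p 0.0207). Il6, the gene of interleukin-6, fell from 361 and 342 CPM to 31.0 and 16.5 CPM (log2 fold change -4.55 ± 0.51, adjusted p 0.00562), with 128 and 97.0 CPM in Prepuberty. Receptors counted 7 lower and 2 higher of 11. The interleukin-1 receptor gene Il1r1 fell (-1.32 ± 0.31, adjusted p 0.0260), from 63.3 and 59.2 to 36.5 and 44.5 CPM, and so did the interleukin-17 receptor gene Il17ra (-2.19 ± 0.36, adjusted p 0.0102). With plain library totals the lower receptor calls that stayed were those of Il1r2, Il1rl1 and Il17ra. The others, that of Il1r1 among them, were lost. The higher genes were Il1rn, the interleukin-1 receptor antagonist (2.64 ± 0.57, adjusted p 0.0213), at 1.83 and 1.81 CPM in DCIS and 20.6 and 16.2 CPM in Tumor, and Il17rc (1.496 ± 0.37, adjusted p 0.0317).

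Of the 17 NF-kB and mRNA decay genes 7 were lower and none was higher, with Zc3h12a, whose protein cuts cytokine mRNAs, at -2.68 ± 0.40 (adjusted p 0.00815). With plain library totals the calls of Zc3h12a, Nfkbib and Cebpd stayed and the others of this group were lost. Nfkbiz, a co-activator of NF-kB, was not called, at 71.7 and 45.5 CPM in DCIS and 99.4 and 44.7 CPM in Tumor. All 3 adhesion genes tested were lower: Icam1, a ligand of leukocyte integrins (-3.88 ± 0.45, adjusted p 0.00594), Vcam1, and Selp, which went from 40 UMIs to 0 (at least 10.7-fold, adjusted p 0.0191) but is an endothelial gene present at 1.28 to 5.14 CPM in the earlier fibroblast-like sums. Among other CXC genes 2 of 10 were lower, with the B-cell chemokine gene Cxcl13 going from 429 UMIs to 3, a ratio of UMI totals of 114.4 with a counting interval of 38.9 to 556.7 (log2 fold change -7.71 ± 0.92, adjusted p 0.00594). Of 11 genes of neutrophil content 4 were lower, and the largest of these changes was in Camp, at 52 UMIs in DCIS and 1 in Tumor, a ratio of 41.6 with a counting interval of 7.14 to 1674 (-5.77 ± 1.05, adjusted p 0.0140). Between DCIS and Prepuberty edgeR called 0 of 59 list genes, 10 had an unadjusted p under 0.05 and DESeq2 called 2.

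**Figure D5:**
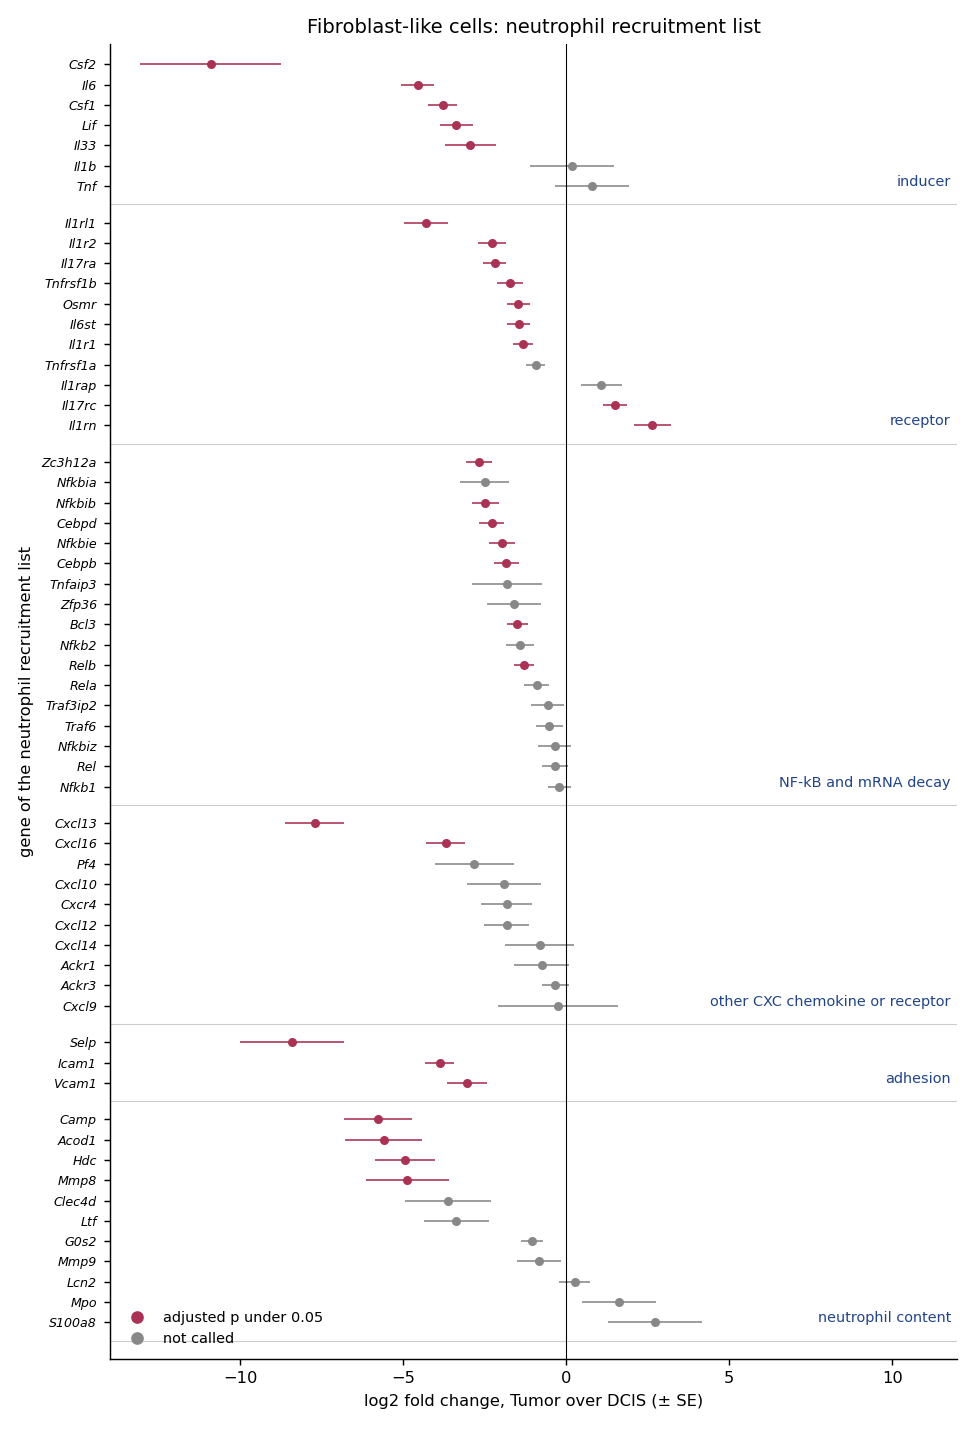
Log2 fold change of Tumor over DCIS in fibroblast-like cells for the 59 tested genes of the neutrophil recruitment list, grouped by role, with SE bars. Red points have an adjusted p under 0.05 in edgeR's quasi-likelihood test: 28 lie below 0 and 2 above, and all 3 adhesion genes are below.

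Endothelial-like cells had 12 of 50 list genes lower and 3 higher for Tumor against DCIS (30% called against 13.9% of all genes, list median -0.99, all genes -0.02). The lower genes included Vcam1 (-5.27 ± 0.99, adjusted p 0.0124), Lcn2 (-4.80 ± 0.76, adjusted p 0.00659) and Cxcl9 (-3.92 ± 0.65, adjusted p 0.00768). Ackr1, which carries chemokines across venules, went from 899 and 342 to 17.9 and 63.0 CPM (-4.58 ± 0.76, adjusted p 0.00768), and Selp, the P-selectin on which neutrophils roll, from 665 and 213 to 87.2 and 11.1 CPM (-3.32 ± 0.87, adjusted p 0.0393). Ackr1 and Selp lead cluster 10, of which the Tumor libraries held 7 and 3 cells. Sele, the E-selectin gene, stood at 29.2 and 3.57 CPM in DCIS and 2.56 and 7.41 CPM in Tumor. The higher genes were Cxcl10 (2.60 ± 0.70, adjusted p 0.0418), Icam2 (1.59 ± 0.34, adjusted p 0.0203) and Cxcl12 (1.04 ± 0.29, adjusted p 0.0459). With plain library totals 3 list genes were called higher and 11 lower, and over all genes 1233 and 414 in place of 778 and 698, with a median of all genes moved by 0.35.

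In epithelial-like cells 4 of 57 list genes were lower and 1 higher (8.77% called against 3.07% of all genes, list median -0.85, all genes 0.09). Of the genes called, Icam1 changed most, from 184 and 105 to 6.09 and 12.7 CPM (-4.37 ± 0.45, adjusted p 0.0196), with Cebpd (-2.54 ± 0.45, adjusted p 0.0410), Csf1 (-2.33 ± 0.29, adjusted p 0.0281) and Cxcl16 (-1.90 ± 0.36, adjusted p 0.0470). The call of Cxcl16 was lost with plain library totals (adjusted p 0.0582 in edgeR), and all 5 list calls were lost without either DCIS library. The scavenging chemokine receptor gene Ackr3 was higher (3.43 ± 0.56, adjusted p 0.0340). In macrophage-like cells 10 of 49 were lower and none higher (20.4% called against 9.6% of all genes, list median -0.67, all genes 0.04), led by Cxcl13 (1110 UMIs to 2, a ratio of 708 with a counting interval of 195.5 to 5853, -9.64 ± 1.33, adjusted p 0.00443), Ppbp (-6.33 ± 1.31, adjusted p 0.0203), Acod1 (-3.81 ± 0.69, adjusted p 0.0124) and Clec4d (-3.07 ± 0.37, adjusted p 0.00314). With plain library totals the list had 2 genes higher and 3 lower in epithelial-like cells and 2 higher and 9 lower in macrophage-like cells, and the median of all genes moved by 0.40 and 0.59. The calls over all genes were then 250 higher and 109 lower in place of 137 and 270 in epithelial-like cells, and 923 and 199 in place of 272 and 382 in macrophage-like cells. For DCIS against Prepuberty edgeR called 0 of 57 list genes in epithelial-like cells (12 at an unadjusted p under 0.05, 3 by DESeq2), 0 of 50 in endothelial-like cells (5, and 0 by DESeq2) and 1 of 49 in macrophage-like cells, Cxcl14, from 3 UMIs to 215, a ratio of 26.8 with a counting interval of 9.04 to 130.8 (4.82 ± 0.56, adjusted p 0.00831). In that comparison plain library totals moved the median of all genes by -0.31 to -0.10 in the 4 classes, turned the fold change of Cxcl2 in endothelial-like cells to -0.17, and gave 11 genes higher and 10 lower in macrophage-like cells in place of 8 and 2.

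The inducers Il1b, Il1a and Tnf were seen in the myeloid classes, which also held Cxcl2 and Cxcl3. Il1b, the gene of interleukin-1 beta, was at 18141 and 9006 CPM in neutrophil-like cells of Tumor 1 and 2, and at 555, 402, 1124, 1032, 1882 and 124 CPM in macrophage-like cells, where the states overlapped. Il1a was at 138, 175, 304, 193, 217 and 11.05 CPM in macrophage-like cells and Tnf at 314, 113, 67.7, 26.6, 104 and 11.05 CPM. In fibroblast-like cells Il1b did not exceed 4.17 CPM and Il1a 0.625 CPM. Il17a UMIs were seen in T-like cells of the Tumor libraries only (14 and 43 UMIs), apart from 1 UMI in an epithelial-like cell of Tumor 1. Il6 was highest in pericyte or smooth muscle-like cells, at 1499, 465, 5188, 3782 and 395 CPM up to Tumor 1, with 1 UMI in Tumor 2. The neutrophil genes S100a8 and S100a9 stood at 17852 and 87555 CPM and at 18488 and 63779 CPM in neutrophil-like cells of Tumor 1 and 2, higher in Tumor 2, whereas Cxcl2 there was higher in Tumor 1.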

How the data were processed

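Members and lists were chosen with earlier results of these data known. Each library has a deposited matrix of UMI counts, not normalized, which the authors made with Cell Ranger 3.0.2 per the file headers on a reference that includes the T antigen. Cells with at least 200 genes and under 10% mitochondrial UMIs were kept. Of 23835 barcodes, 546 had too few genes and 1045 exceeded that limit, and 707 doublets were removed by Scrublet score (scanpy 1.11.5) at 0.8% per 1000 cells, since the automatic threshold marked 64. Kept UMIs per library ranged from 28564804 to 57189896.

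Libraries were integrated and clustered in Seurat 5.3.0 (R 4.3.3, 2000 features without members, 20 dimensions, resolution 0.8). Naming a cluster needed at least 3 markers of a type in at least 25% of its cells at 2 times the median of the other clusters. It also needed a marker among the leading genes or else most of the markers, no such lead for another type, a keratin for epithelial and myoepithelial names, and no low median UMI count without a leading marker. The naming limits were chosen once the matrices were known. Clusters with 2419 cells had 3 or more markers but failed these further limits and stayed unnamed. The names were rebuilt here and can differ from the study's.

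Raw UMIs were summed per library over the cells of a class (at least 10), and edgeR 4.0.16 fitted all 6 sums with the state as the only term (TMM, filterByExpr, quasi-likelihood F test, two-sided), adjusted by Benjamini-Hochberg over all genes tested, at a threshold of 0.05. SEs come from the F statistic. CPM are on plain UMI totals, whereas fold changes include TMM, whose factors were 0.793 and 0.815 in DCIS and 1.18 and 1.50 in Tumor for fibroblast-like cells, so fitted folds lie further below 0 than ratios of CPM. Folds against a state with 0 UMIs are bounds on a floor of 3 counts over the state. Ratios of UMI totals against 1 to 3 UMIs have exact 95% intervals. Fitted fold changes against so few UMIs, as with a library left out, have no such interval. Intervals and floors cover counting error only. The fit was tested on simulated data. Named list genes were, per class and direction, the 4 called with the largest fold changes, and a fixed set (Il1b, Il1a, Tnf, Il17a, Il6, Il1r1, Il17ra, Nfkbiz, Zc3h12a, Icam1, Sele, Selp, Ackr1, S100a8, S100a9); Vcam1 in fibroblast-like cells was named after its value was seen. Alternatives were DESeq2 1.42.0, RLE scaling, no filter on low counts, leaving out each library, a replicate block, a 5% mitochondrial limit, members among the clustering genes, no integration, cells without T-antigen UMIs and, added later, library totals without TMM. Promoter windows are from RefSeq (GRCm38.p6).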

Additional observations from a re-analysis of the deposited data

How the results depend on the processing

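All 23 member fold changes fitted for Tumor against DCIS were below 0, and 22 stayed below 0 under every alternative run; the exception was Cxcl2 in epithelial-like cells, at 0.09 without Tumor 2. Over all 640 alternative values of member fold changes in both comparisons, 24 lost a call, 49 gained one and 11 changed sign, all of them values that were not called. Counts of calls moved with the filter, DESeq2, clustering without integration and single libraries. Without integration the cells that bore a class name changed too, as given below. The causes were not tested further. With 2 libraries per state, 1 left out leaves a state with 1 library, assumed to vary like the others. Depth limits the Tumor values of endothelial-like, pericyte or smooth muscle-like and neutrophil-like cells.

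With no filter, calls over all genes for DCIS against Prepuberty were 447 of 17337 in endothelial-like and 676 of 21042 in epithelial-like cells. They were 369 of 19423 in fibroblast-like and 251 of 14909 in macrophage-like cells. Without integration 6 of 10040 were called in endothelial-like cells, and with library totals 21 of 6810 in macrophage-like cells. Members called for DCIS against Prepuberty were 0 in each class. In endothelial-like cells they were 1 with DESeq2, 3 with no filter and 1 without integration, in epithelial-like cells 1 with no filter, in fibroblast-like cells 2 with no filter, and in macrophage-like cells 2 with DESeq2, 3 with no filter, 1 with library totals and 0 to 2 with 1 library left out. For Tumor against DCIS, the 5 of fibroblast-like cells became 3 without integration, 3 in cells without a T-antigen UMI, 4 with members among the clustering genes and 2 to 5 with 1 library left out. The 4 of endothelial-like cells became 1 without integration and 2 to 4 with 1 library left out. The 0 of epithelial-like cells became 4 with DESeq2, 4 with no filter and 0 to 5 with 1 library left out, 5 of them without Tumor 1 and 3 without Tumor 2. The 2 of macrophage-like cells became 5 with no filter, 1 with library totals and 1 to 6 with 1 library left out. Without integration the classes held other cells. Tumor cells named fibroblast-like then lay mostly in a cluster with 167 cells of Tumor 1 and 28 of Tumor 2. No other such cluster held more than 8 and 6, against 326 and 358 in the class reported. A cluster of 65 and 16 Tumor cells passed 7 endothelial markers but stayed unnamed. So did a cluster that passed 7 macrophage markers, with 99, 78, 234 and 162 cells of Prepuberty and DCIS. Macrophage-like cells were then too few in those states for a fit.

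List genes called for DCIS against Prepuberty became, in fibroblast-like cells, 2 with DESeq2 and 7 with no filter in place of 0, in epithelial-like cells 3 and 5 in place of 0, in endothelial-like cells 8 with no filter in place of 0, and in macrophage-like cells 2 with DESeq2, 9 with no filter and 0 to 4 with 1 library left out in place of 1. For Tumor against DCIS, the 30 of fibroblast-like cells became 13 without integration, 22 in cells without a T-antigen UMI (median -1.41), 26 with members among the clustering genes and 6 to 32 with 1 library left out (10 without DCIS 1, 6 without DCIS 2, 16 without Tumor 2). The 15 of endothelial-like cells became 25 with no filter, 2 without integration and 7 to 14 with 1 library left out (7 without DCIS 1, 9 without Tumor 2). The 5 of epithelial-like cells became 20 with DESeq2, 31 with no filter and 0 to 20 with 1 library left out (1 without either Prepuberty library, 0 without either DCIS library, 20 without Tumor 1, 17 without Tumor 2). The 10 of macrophage-like cells became 22 with no filter and 4 to 23 with 1 library left out (4 without DCIS 1, 5 without DCIS 2, 23 without Tumor 1, 6 without Tumor 2). Over all genes, fibroblast-like calls for Tumor against DCIS went from 2341 to 393 without DCIS 1 and 144 without DCIS 2, to 1263 in cells without a T-antigen UMI, to 1765 with members among the clustering genes and to 451 without integration, which took those of endothelial-like cells from 1476 to 64.

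Libraries of different states share only a number, and the correlation of their deviations, over genes, ran from -0.02 to 0.36. A fit with the replicate number as a block called 1 member and 1 list gene in endothelial-like cells for DCIS against Prepuberty, each in place of 0. Over all genes it called 92 of 10625, also in place of 0. In macrophage-like cells it called 1 member in place of 0, 1 list gene as without the block, and 17 of 6810 genes in place of 10. For Tumor against DCIS it called 5, 3, 0 and 2 members and 32, 19, 4 and 10 list genes in fibroblast-like, endothelial-like, epithelial-like and macrophage-like cells. Over all genes it called 2661, 1840, 88 and 749 there.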
